A study of Mus musculus with 7 samples.

Results

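Transcripts of 7 genes that direct monocytes into tissue were followed in the hearts of mice modelling myocarditis caused by immune checkpoint inhibitors (ICI). The genes were chosen by name and made up 7 of the 23420 rows of the gene table: the chemokines Ccl2, Ccl7, Ccl8 and Ccl12, the receptor Ccr2, and the chemokine Cx3cl1 with its receptor Cx3cr1. Total RNA of flash-frozen ventricle (the tissue label reads whole heart) was sequenced from 7 untreated mice aged 3 to 6 weeks. The 4 control mice were ctla4+/+ pd-1-/- and the 3 ICI-myocarditis mice were ctla4+/- pd-1-/-, so every animal was labelled as lacking PD-1 and the groups differed in 1 copy of Ctla4. The model is thus one of genotype: the animals were labelled as untreated, so none received an antibody drug, nor abatacept or ruxolitinib, the drugs in the title of the study.

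Chemokines are small secreted proteins that attract leukocytes along a gradient by binding G protein-coupled receptors. CCR2 is the receptor that classical, Ly6C-high monocytes use to leave the bone marrow and enter inflamed tissue, and its mouse ligands include CCL2, CCL7 and CCL12, encoded side by side with CCL8. Mouse CCL8 is also known as a ligand of CCR8, a receptor found on subsets of T cells. CX3CR1 marks non-classical, patrolling monocytes and many tissue macrophages, and its ligand CX3CL1 (fractalkine) is made as a membrane-anchored adhesion molecule that proteases can release as a soluble attractant. In the heart, macrophages that carry CCR2 derive largely from blood monocytes, while many resident macrophages lack it.

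Recovered read totals ranged from 20931730 to 39037176 per library. Values are normalized counts, that is, reads per gene divided by a size factor for each library, and a log2 fold change is the ICI-myocarditis mean minus the control mean of log2(normalized count + 1). The means with SD given beside it are means of the counts themselves, so their ratio need not match the log2 fold change. Ctla4, the gene that differed by genotype, was at 63.3 ± 37.4 (SD, n = 4) in controls and 302 ± 63.4 (SD, n = 3) in ICI-myocarditis, a log2 fold change of 2.40 (limma adjusted p = 0.00849). Pdcd1, which encodes PD-1, ranged from 2.50 to 244 in controls and from 1096 to 1481 in ICI-myocarditis, although all animals were labelled as lacking it. The table gives whole genes, not exons, so neither gene tests the genotype. Cardiomyocyte genes dominated every library, with 6 markers summing to 708039 or more, while the 4 skeletal muscle markers summed to at most 137. Control 2 stood apart from the other controls in lymphocyte genes: its 8 T cell markers summed to 1579 normalized counts against 161 to 277 in the other 3. The labels name separate mice, with no batch or litter.

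All 7 genes were higher in ICI-myocarditis by limma (Benjamini-Hochberg adjusted p under 0.05 over 15258 genes), where 11.7% of tested genes were called higher. For each of them every ICI-myocarditis library lay above every control library, as it did for 17.3% of all tested genes. The median log2 fold change was 3.32 over the 7 genes and -0.02 over all genes tested. Ordered by log2 fold change among the 15258 genes, Ccl8 stood at place 1, Ccl2 at 261, Ccl7 at 295, Ccl12 at 357, Ccr2 at 452, Cx3cl1 at 992 and Cx3cr1 at 1041. In bulk tissue, more cells of a type and more RNA per cell cannot be told apart, and this holds for every value given here. All 7 genes passed the filter on low values through the control libraries as well, each reaching 10 normalized counts in 3 or more controls.

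**Figure D1:**
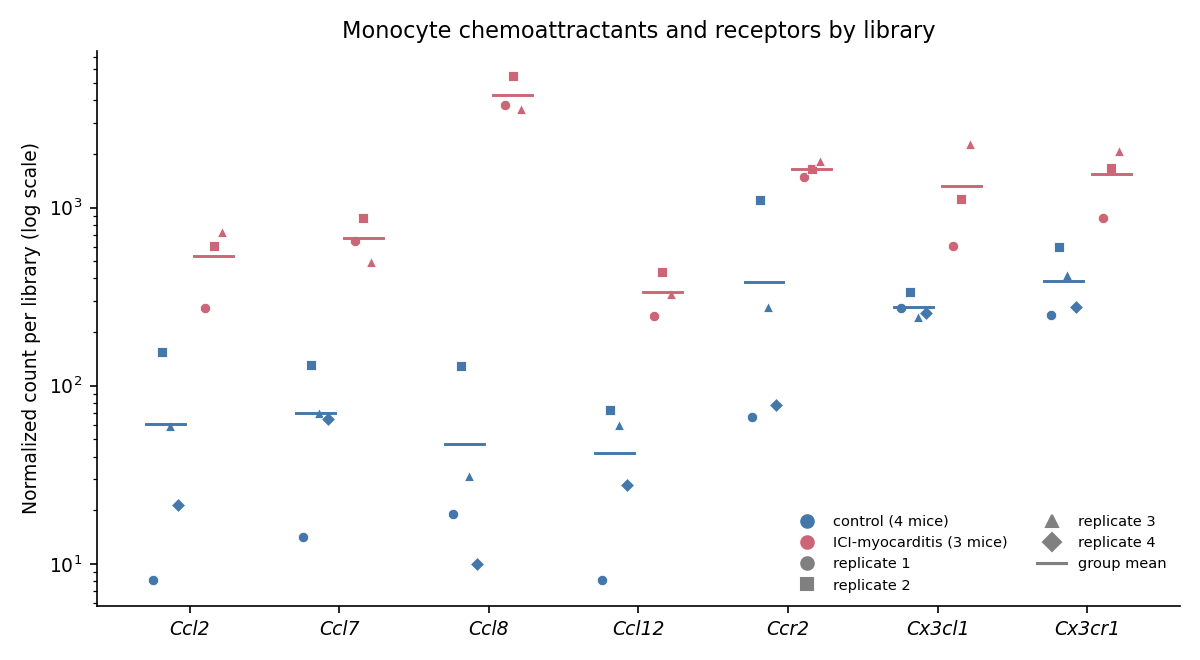
Normalized count of each gene in each library on a log axis, with controls in blue, ICI-myocarditis in red, 1 symbol shape per replicate number and a bar at each group's mean. The red points lie above the blue points for all 7 genes, and the squares of control 2 are the highest blue points.

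Under edgeR's quasi-likelihood test on recovered reads, 6 of the 7 genes were called higher (10.1% of the 15283 genes it tested). The authors' deposited table also calls 6 of the 7 higher, against 12.9% of all genes with an adjusted p in it. The gene that missed in both was Ccr2. Over 18 alternative analyses, Ccl7, Ccl8, Ccl12, Cx3cl1 and Cx3cr1 passed in all 18, Ccl2 in 16 and Ccr2 in 8.

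**Figure D2:**
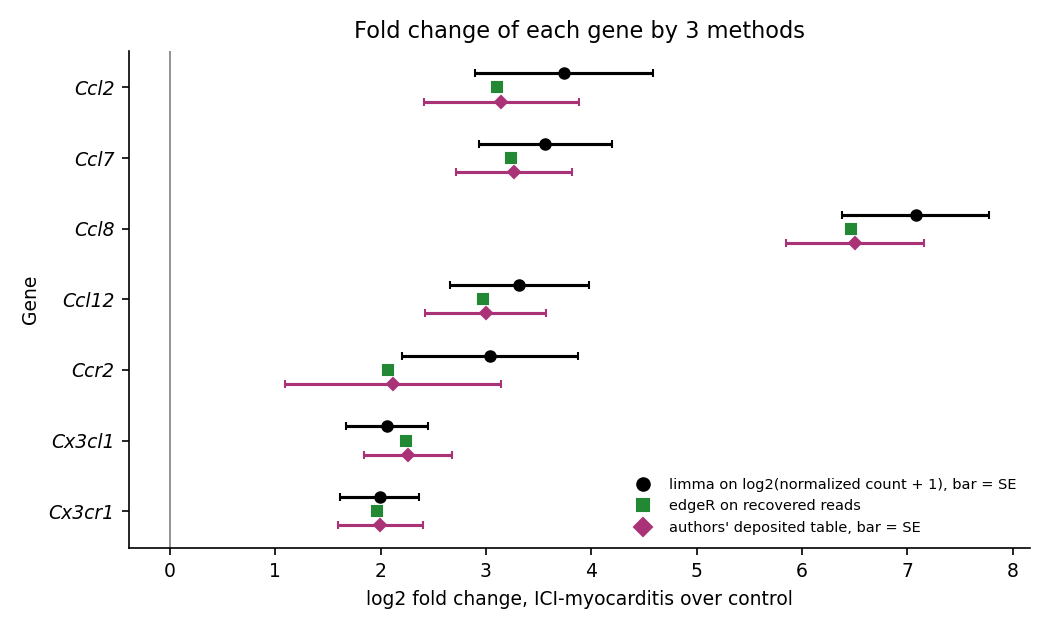
Log2 fold change of each gene, ICI-myocarditis over control, from limma (circles, with the standard error), edgeR on recovered reads (squares) and the authors' deposited table (diamonds, with its standard error). All points lie above 0, and Ccl8 lies farthest out, at 7.08 by limma.

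The CCR2 ligands Ccl2, Ccl7 and Ccl12 rose from low levels, by 3.32 to 3.74 on the log2 scale. Ccl2 encodes MCP-1, the best known attractant of classical monocytes. It measured 8.07, 154, 59.2 and 21.3 normalized counts in controls 1 to 4 and 274, 605 and 728 in ICI-myocarditis 1 to 3. The groups did not overlap, but the controls spread widely, with control 2 highest and control 1 lowest. Its mean went from 60.7 ± 66.0 (SD, n = 4) to 536 ± 235 (SD, n = 3), a log2 fold change of 3.74 with a standard error of 0.848 (limma adjusted p = 0.0182). The call was lost without ICI-myocarditis 2 (limma adjusted p = 0.0602) or ICI-myocarditis 3 (limma adjusted p = 0.0769). Its log2 fold change was 3.06 without control 1, 4.43 without control 2 and 3.11 by edgeR. For Ccl2 the authors' deposited table gives a log2 fold change of 3.15 with an adjusted p of 0.000288.

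Ccl7, which encodes MCP-3, a ligand of CCR2 and of other CC receptors, measured 14.1, 131, 70.3 and 65.1 in controls and 652, 870.4 and 492 in ICI-myocarditis. Control 1 was the low control and control 2 the high one, and the lowest ICI-myocarditis value was more than 3 times the highest control. The mean went from 70.1 ± 47.7 (SD, n = 4) to 671 ± 189.9 (SD, n = 3), a log2 fold change of 3.56 (standard error 0.631; limma adjusted p = 0.00723). Ccl12 encodes MCP-5, a rodent ligand of CCR2. It measured 8.07, 72.8, 60.3 and 27.5 in controls and 247, 433 and 326 in ICI-myocarditis. The controls came in the same order as for Ccl7, with control 1 lowest and control 2 highest, and ICI-myocarditis 2 was the highest library for both genes. The mean of Ccl12 went from 42.2 ± 29.7 (SD, n = 4) to 335 ± 93.7 (SD, n = 3), a log2 fold change of 3.32 (standard error 0.662; limma adjusted p = 0.0109). Without control 1 the log2 fold change was 2.94 for Ccl7 and 2.697 for Ccl12, both still called.

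Ccl8, which encodes MCP-2, had the largest fold change of the 7 genes. It measured 19.2, 128, 31.3 and 10.01 normalized counts in controls 1 to 4 and 3764, 5482 and 3556 in ICI-myocarditis 1 to 3. The control values were as low as those of the other ligands, whereas every ICI-myocarditis library lay far above them. The mean went from 47.2 ± 54.8 (SD, n = 4) to 4268 ± 1057 (SD, n = 3). The log2 fold change, from means of log2 values, was 7.08 with a standard error of 0.695 (limma adjusted p = 0.00251). On that scale this is 135-fold, more than the ratio of the 2 means of counts. Over the 18 alternatives its log2 fold change lay between 6.47 and 7.76, the highest value being that without control 2. For Ccl8 the authors' deposited table gives 6.50 with an adjusted p of 2.81e-19. Few reads underlie the low controls: 8 recovered reads for Ccl8 in control 4, and 8 each for Ccl2 and Ccl12 in control 1.

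The make-up of the 4 ligand transcripts was not alike in the groups, which is given here as a description with no test. Counts were divided by exon length so that genes could be compared, and each ligand was expressed as a share of the 4. Ccl8 made up 46.8%, 33.9%, 18.3% and 10.99% in controls 1 to 4 and 82.1%, 80.3% and 76.7% in ICI-myocarditis 1 to 3. No control came near the ICI-myocarditis range, in which the 3 animals were much alike (79.7 ± 2.75%, SD, n = 3, against 27.5 ± 16.04%, SD, n = 4). The share of Ccl7 was 29.0 ± 11.2% in controls and 7.99 ± 1.15% in ICI-myocarditis, that of Ccl12 24.9 ± 7.56% and 5.95 ± 0.793%, and that of Ccl2 18.6 ± 6.16% and 6.40 ± 3.14% (SD, n = 4 and n = 3). Shares are bound to sum to the whole, so a higher share of Ccl8 lowers the others, all of which rose in level. The summed level of the 4 went from 333 ± 291 (SD, n = 4) to 10473 ± 2506 (SD, n = 3) normalized counts per kilobase.

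**Figure D3:**
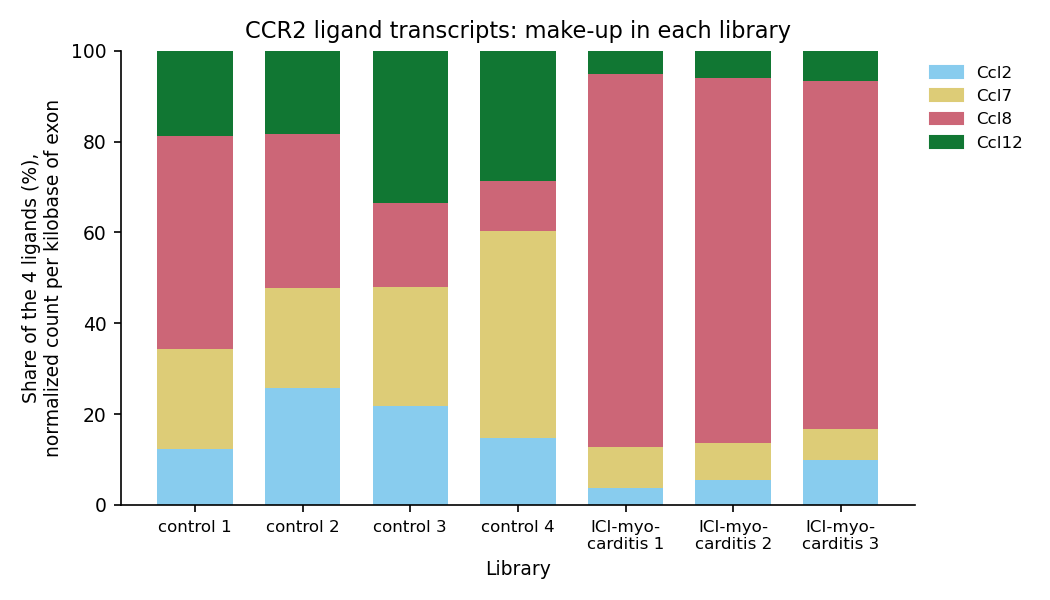
Share in percent of Ccl2, Ccl7, Ccl8 and Ccl12 in the summed normalized count per kilobase of exon, 1 stacked bar per library. Ccl8 fills 76.7% or more of each ICI-myocarditis bar and at most 46.8% of each control bar.

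Per kilobase of all annotated exons of a gene, the 7 genes overlapped in control hearts. Control means ran from Ccl8 (92.3 normalized counts per kilobase) through Ccl7 (87.5), Cx3cr1 (85.7), Cx3cl1 (78.6), Ccl12 (78.5) and Ccl2 (74.6) to Ccr2 (56.2), and every neighbouring pair in that order overlapped. In ICI-myocarditis the order was Ccl8 at 8351 ± 2069, Ccl7 at 838 ± 237, Ccl2 at 659 ± 289, Ccl12 at 625 ± 175, Cx3cl1 at 376 ± 241, Cx3cr1 at 342 ± 136 and Ccr2 at 244 ± 25.03 (SD, n = 3). Only Ccl8 was apart from the next gene, while all later neighbours overlapped. Which transcripts were present is not known, and the places of the genes with several transcripts depend on the length used. Over the shortest annotated transcript (377 bases in place of 3533) Cx3cl1 would be at 737 per kilobase in controls, above the other 6 genes, and at 3526 in ICI-myocarditis, after Ccl8. Ccr2 would be at 168 and 728 (2265 bases in place of 6760), and Cx3cr1 at 122 and 488 (3156 in place of 4505). All these lengths are from the basic set of the annotation, in which the 4 CC ligands have 1 transcript each. The full set holds 2 for Ccl2 and 2 for Ccl12.

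The 4 ligand genes lie together on chromosome 11, all on the forward strand (GRCm38.p6, RefSeq): Ccl2 at 82035577 to 82037452, Ccl7 at 82045712 to 82047525, Ccl12 at 82101845 to 82103399 and Ccl8 at 82115185 to 82116799. They span 81.2 kb, with Ccl11 inside the span, between Ccl7 and Ccl12, and Ccl1 59.9 kb beyond Ccl8. Ccl11, the eosinophil attractant eotaxin, was at 33.6 ± 20.1 (SD, n = 4) in controls and 52.8 ± 62.0 (SD, n = 3) in ICI-myocarditis and did not pass (log2 fold change 0.14, limma adjusted p = 0.931). Ccl1, a ligand of CCR8, went from 1.49 ± 2.35 (SD, n = 4) to 16.6 ± 7.24 (SD, n = 3). It reached the filter on low values only through the ICI-myocarditis libraries, so its call is no support, and without any 1 of them it was not tested. The groups overlapped for Ccl11, in the middle of the cluster.

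The bases just upstream of the start are shown for Ccl8 and Ccl12, which are adjacent with a gap of 11.8 kb, and for Cx3cl1 and Cx3cr1, on other chromosomes, since these genes rose together. The entry for Ccr2 is left out because it lies inside the annotated span of the gene. Each run holds the 150 bases before the RefSeq start in GRCm38.p6, on the forward strand except for Cx3cr1, which is on the reverse strand, with capitals at matches to TATAAA, the TATA box, or to GAGGAA, a core bound by ETS factors such as PU.1, on either strand.
Ccl12, chr11:82101695-82101844: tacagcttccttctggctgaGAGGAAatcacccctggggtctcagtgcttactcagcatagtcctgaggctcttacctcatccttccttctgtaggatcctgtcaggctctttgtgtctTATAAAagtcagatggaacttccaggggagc
Ccl8, chr11:82115035-82115184: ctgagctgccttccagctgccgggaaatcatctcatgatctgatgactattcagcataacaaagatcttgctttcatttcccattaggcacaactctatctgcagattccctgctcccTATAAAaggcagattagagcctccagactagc
Cx3cl1, chr8:94772030-94772179: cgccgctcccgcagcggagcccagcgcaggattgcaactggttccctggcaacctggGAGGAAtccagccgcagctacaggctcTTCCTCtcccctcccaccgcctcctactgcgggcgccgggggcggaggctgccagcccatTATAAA
Cx3cr1, chr9:120068297-120068446: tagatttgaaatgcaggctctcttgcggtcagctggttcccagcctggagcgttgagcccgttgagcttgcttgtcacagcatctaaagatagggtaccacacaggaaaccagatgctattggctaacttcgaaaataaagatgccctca

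Ccl8 and Ccl12 carry TATAAA at nearly the same place, from -32 to -27 and from -31 to -26 counted back from the start, whereas in Cx3cl1 it ends at -1, and the run of Cx3cr1 holds neither motif. Windows of 300 bases around the start (250 before and 50 after) were matched for 5 of the 7 genes: Ccl8, Ccl12, Ccr2, Cx3cl1 and Cx3cr1. TATAAA occurred in 3 of these 5 and in 13.6% of the 32851 windows of all promoters. GAGGAA occurred in 3 of 5 and in 28.3% of all windows. The letters of the NF-kappaB motif GGGANNNNCC (20.7% of all windows), the STAT motif TTCNNNGAA (8.30%), the interferon response motif GAAANNGAAA (3.44%) and the AP-1 motif TGANTCA (7.81%) were in none of the 5 windows, on either strand. The Ccl8 and Ccl12 windows were identical at 65.0% of aligned positions, against 52.9% to 64.5% for the other pairs of the 5.

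Ccr2, the receptor for these ligands, rose by limma, but the call rests on the spread of the controls. It measured 66.5, 1099, 276 and 77.6 normalized counts in controls 1 to 4 and 1483, 1643 and 1821 in ICI-myocarditis 1 to 3. The ICI-myocarditis animals were close together, whereas control 2 held nearly 4 times as much as the next control, and lay nearer to the ICI-myocarditis animals than to the other controls on the log scale. The mean went from 379.8 ± 489 (SD, n = 4) to 1649 ± 169 (SD, n = 3), a log2 fold change of 3.04 (standard error 0.834; limma adjusted p = 0.0384). The edgeR quasi-likelihood test gave 2.07 with an adjusted p of 0.142, DESeq2 gave 2.12 with 0.138, and the authors' deposited table gives 2.12 with 0.138. Without control 2 the limma log2 fold change was 3.85 with an adjusted p of 0.000503. Without any other 1 library the call was lost, with limma adjusted p from 0.0700 to 0.123.

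Control 2 also had the highest T cell marker sum (1579) and NK cell marker sum (204) among the controls, and lymphocytes can carry CCR2. Its pan-macrophage marker sum of 18576 was little above the 13825 to 17560 of the other controls, and its classical monocyte marker sum of 6714 was the lowest of the 4. The part of these cells in the Ccr2 value of control 2 was not tested. Ccr2 lies on chromosome 9 at 124101918 to 124109140 (GRCm38.p6, forward strand). Its transcripts share an exact run of 152 bases with those of another gene, as long as a whole read, so reads within that run could not be assigned to Ccr2 by sequence.

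Both genes of the CX3C pair rose. Cx3cl1 measured 273, 337, 245 and 256 normalized counts in controls 1 to 4, and 606, 1115 and 2267 in ICI-myocarditis 1 to 3. The controls were tight and the ICI-myocarditis animals were not: ICI-myocarditis 3 held more than 3 times the value of ICI-myocarditis 1. The mean went from 278 ± 41.1 (SD, n = 4) to 1329 ± 851 (SD, n = 3), a log2 fold change of 2.06 (standard error 0.385; limma adjusted p = 0.00871). Cx3cr1 measured 251, 598, 418 and 278 in controls and 874, 1667 and 2083 in ICI-myocarditis. It had the same order of ICI-myocarditis animals as Cx3cl1, with animal 1 lowest and animal 3 highest, and control 2 was again the highest control. The mean of Cx3cr1 went from 386 ± 159 (SD, n = 4) to 1541 ± 614 (SD, n = 3), a log2 fold change of 1.99 (standard error 0.375; limma adjusted p = 0.0089). The authors' deposited table gives log2 fold changes of 2.26 for Cx3cl1 and 2.00 for Cx3cr1.

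Cx3cl1 lies on chromosome 8 at 94772180 to 94782427 (GRCm38.p6, forward strand), between the chemokine genes Ccl22 (20.8 kb away) and Ccl17 (27.0 kb away). Both encode ligands of CCR4. Ccl22 was at 5.24 ± 5.83 (SD, n = 4) in controls and 145 ± 70.6 (SD, n = 3) in ICI-myocarditis, and Ccl17 at 4.27 ± 2.95 and 31.8 ± 9.89. Both were called higher, but neither reaches the filter in the controls, so these calls are given as a description. Cx3cr1 lies on chromosome 9 at 120048683 to 120068296 on the reverse strand, 3894 kb from Ccr1. It shares an exact run of 115 bases with transcripts of Grem1, and the other 5 genes share no run of 25 bases or more with another gene.

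Differences between genes were tested within each library, over 9 pairs, by a two-sided exact permutation test over the 35 ways of dividing the 7 libraries into 4 and 3, whose smallest p is 0.0286. None of the 9 passed after adjustment. A pass would have needed most of the 9 pairs to reach that smallest p. Pairs with groups fully apart were at the smallest p and still at 0.129 after adjustment. The adjusted test therefore could not decide on single pairs, and no conclusion is drawn from the lack of a pass. The difference of Ccl8 minus Ccr2 moved from -2.69 ± 0.64 (SD, n = 4) to 1.35 ± 0.39 (SD, n = 3), a change of 4.04 log2 units with no overlap (exact p = 0.0286, adjusted over 9 = 0.129). These are differences of counts not divided by length, so only their change between groups can be read, not which gene is the higher. For Ccl2, Ccl7 and Ccl12 minus Ccr2 the changes were 0.71, 0.53 and 0.28 (exact p = 0.143, 0.514 and 0.714), with overlapping groups.

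Ccr2 minus Cx3cr1, a contrast of recruited and patrolling or resident cell receptors, went from -0.86 ± 1.30 (SD, n = 4) to 0.18 ± 0.51 (SD, n = 3; exact p = 0.229, adjusted over 9 = 0.514). Control 2 was the high control for this difference, at 0.88, above all 3 ICI-myocarditis libraries. Cx3cl1 minus Cx3cr1 differed by 0.07 between the groups (exact p = 0.914). Set against the mean of 9 pan-macrophage markers, Ccr2 changed by 0.85 (exact p = 0.4) and Cx3cr1 by -0.20 (exact p = 0.543), so neither differed detectably from the rise of those markers with 4 and 3 animals. Cx3cl1 minus the mean of 8 endothelial markers went from -4.27 ± 0.40 (SD, n = 4) to -1.15 ± 0.89 (SD, n = 3), a change of 3.11 with no overlap (exact p = 0.0286, adjusted over 9 = 0.129).

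**Figure D4:**
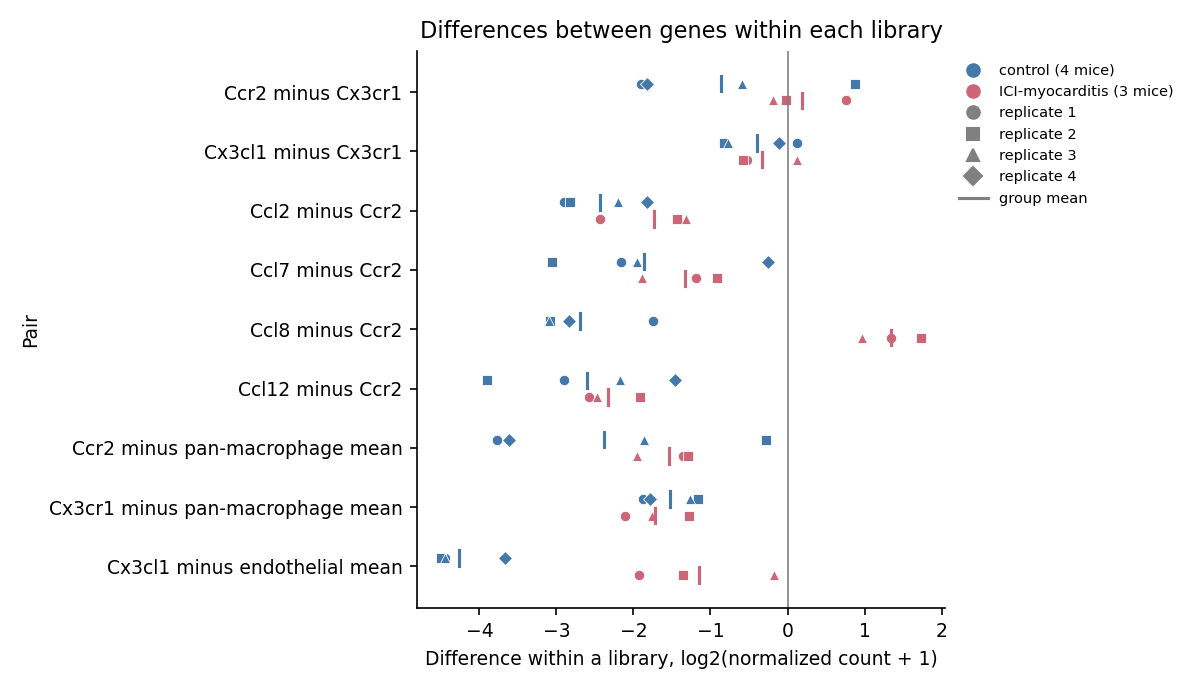
Difference of log2(normalized count + 1) within each library for the 9 pairs, with controls in blue, ICI-myocarditis in red, 1 symbol shape per replicate number and a bar at each group's mean. The groups are apart for Ccl8 minus Ccr2 and for Cx3cl1 minus the endothelial mean, and overlap for the other 7 pairs.

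Among the other CC receptors, 7 of 10 were tested, of which 5 were called higher and none lower, against 11.7% and 4.00% of all genes. Ccr4 and Ccr8 reached the filter only through the ICI-myocarditis libraries, and of the 5 receptors that reach the filter in controls 3 rose. Ccr8, the receptor that mouse CCL8 can bind, went from 2.92 ± 4.07 (SD, n = 4) to 122 ± 38.7 (SD, n = 3), with the highest control at 8.63. Ccr1, a receptor of myeloid cells, rose by 2.38 on the log2 scale, and Ccr7, which guides dendritic and T cells to lymph nodes, by 3.25. Ccr4 was at 1.38 ± 1.01 (SD, n = 4) in controls and 14.4 ± 2.79 (SD, n = 3) in ICI-myocarditis. Ccr9 (0.39) and Ccr10 (-0.58) did not pass, and Ccr1l1, Ccr3 and Ccr6 were too low to test. Leaving out any 1 ICI-myocarditis library left 1 call among 5 tested. Ccr4 and Ccr8 then fell under the filter, and Ccr1 and Ccr7 did not pass. Of the chromosome 9 genes compared with Ccr2, Ccr1 and Ccrl2 rose, though Ccrl2 lies far from Ccr2 on the other side of Cx3cr1.

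Atypical receptors bind chemokines without G protein signalling and can scavenge or present them. They were listed together with Ccrl2 and Pitpnm3. Of 5 genes of this list tested, 2 rose and 1, Pitpnm3, fell (median 0.71), against 11.7% and 4.00% of all genes. Ackr2 (in the table as Ccbp2), the scavenger of inflammatory CC chemokines including CCL2, went from 109 ± 42.1 (SD, n = 4) to 335 ± 111 (SD, n = 3), a log2 fold change of 1.64 (limma adjusted p = 0.0150). Ccrl2, which binds chemerin, rose by 1.19 (limma adjusted p = 0.0253), and Pitpnm3, described as a receptor of human CCL18, fell by 1.45 on the log2 scale (limma adjusted p = 0.0118). The call for Ackr2 was lost without control 3 or ICI-myocarditis 3, and that for Ccrl2 without control 1, control 3, ICI-myocarditis 1 or ICI-myocarditis 2. Ackr3 (in the table as Cxcr7, -0.26) and Ackr4 (in the table as Ccrl1, 0.71) did not pass, and Ackr1 (in the table as Darc) was too low to test.

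Of 13 other CC ligands tested, 8 were called higher and 1 lower, against 11.7% and 4.00% of all genes. Of the 7 among them that reach the filter in controls, 3 rose and 1 fell. Ccl5, the T cell chemokine RANTES, rose by 6.03 on the log2 scale (limma adjusted p = 0.00504). Ccl4, the chemokine MIP-1 beta, was at 12.5 ± 20.5 (SD, n = 4) in controls, under the filter in 3 of them, and at 689 ± 405 (SD, n = 3) in ICI-myocarditis. Ccl6 rose by 1.505. The decrease was that of Ccl24, eotaxin-2, at -3.50 (limma adjusted p = 0.00814), named here after its value was seen. In control 2, Ccl5 and Ccl4 were also the highest of the controls.

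Of 5 genes for release of CX3CL1 from the membrane, 1 rose, a count too small to be read against the 11.7% of all genes called higher. Ctss, the lysosomal protease cathepsin S, which can cut CX3CL1, rose from 1019 ± 607 (SD, n = 4) to 18413 ± 5671 (SD, n = 3), a log2 fold change of 4.29 (limma adjusted p = 0.00251), and is itself abundant in macrophages. The sheddases Adam10 (0.21) and Adam17 (0.49, limma adjusted p = 0.118) and the ADAM17 partners Rhbdf1 (-0.04) and Rhbdf2 (0.59) did not pass.

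Downstream of the receptors, 11 of 22 signalling genes rose and none fell (median 1.45), against 11.7% and 4.00% of all genes. The same shares stand beside the other counts of this paragraph. Those with the lowest p were Rac2, a leukocyte GTPase of cell movement (log2 fold change 3.53), Ptk2b, the kinase Pyk2 (2.49), and Pik3r5, a subunit of the PI3K-gamma of leukocytes (3.01). Among inducers and transcription factors of the CCR2 ligands 4 of 14 rose and none fell (median 0.79), among them Ifng by 5.96, Irf1 by 2.29 and Tnf by 3.94. Ifng and Tnf reach the filter only with the ICI-myocarditis libraries. Of the other 12 genes 2 rose, a count too small to be read against the 11.7% of all genes. The count of 4 was 7 without control 2 and 2 without ICI-myocarditis 3. Among monocyte growth factors and their receptors 5 of 7 rose (median 1.33): Csf2rb by 3.18, Csf2ra by 1.84, Csf1r by 1.33, Csf1 by 0.70 and Flt3, which reaches the filter only with the ICI-myocarditis libraries, by 3.82. That count was 3 without control 1 or ICI-myocarditis 2, and 2 without control 3 or ICI-myocarditis 3.

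**Figure D5:**
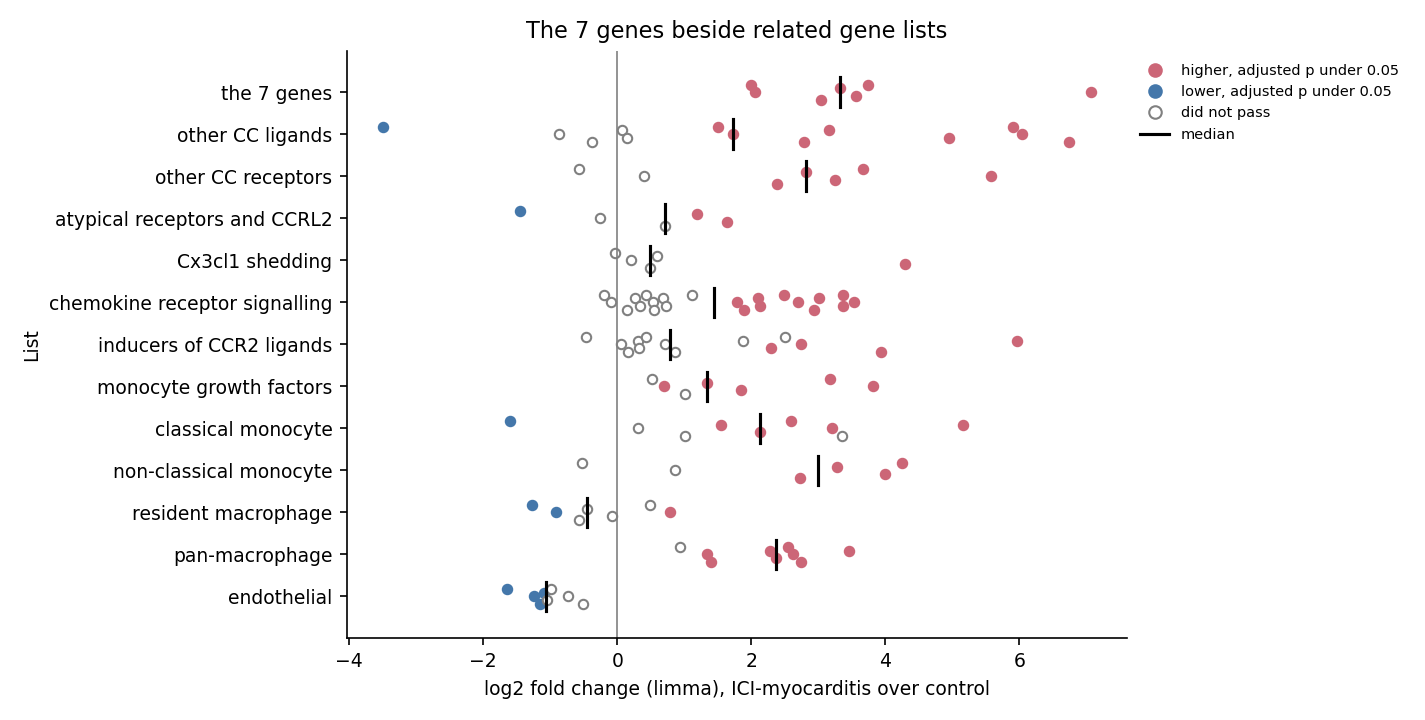
Log2 fold change by limma of each tested gene in the lists of related genes and cell markers, with calls higher in red, calls lower in blue, genes that did not pass as open circles and a black bar at each median. The 7 genes lie at 1.99 and above, and the endothelial and resident macrophage medians lie below 0.

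Markers of the cells that carry or make these proteins moved as follows, against 11.7% of all tested genes called higher and 4.00% lower. Of 9 classical monocyte markers 5 rose and 1 fell (median 2.13), with Itgam up by 2.59, Vcan up by 1.55 and F13a1 down at -1.60. Of 6 non-classical monocyte markers tested 4 rose (median 3.00), with Spn, Itgal and Pglyrp1 at 4.24, 3.99 and 2.73, although Spn and Itgal are also T cell genes. In that list 1 gene reached the filter only through the ICI-myocarditis libraries, and of the other 5 genes 3 rose. Of 9 pan-macrophage markers 8 rose (median 2.36), and their sum went from 13825 to 18576 in controls to 55099 to 85647 in ICI-myocarditis. Resident macrophage markers did not follow: 1 of 7 rose (Mrc1, 0.79), 2 fell (Cd163, -0.92, and Cbr2, -1.28), and their sum ranged from 10419 to 12178 in controls and from 10047 to 14564 in ICI-myocarditis. All 8 T cell markers rose (median 4.83), with sums of 161 to 1579 in controls and 6634 to 10081 in ICI-myocarditis. Of these 8 markers, 7 reach the filter in controls, and all 7 rose. The part of cell numbers in the rise of the 7 genes was not tested.

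Endothelial markers, from cells known to make CX3CL1, went the other way from Cx3cl1: 4 of 8 fell and none rose (median -1.07), with Erg at -1.24, Emcn at -1.16 and Kdr at -1.65, and their sum was 31639 to 81190 in controls and 23290 to 30024 in ICI-myocarditis. Over all tested genes 11.7% were called higher and 4.00% lower. Of 6 fibroblast markers 2 rose (median 0.61), of 4 smooth muscle markers 2 fell (median -1.13), and none of 6 cardiomyocyte markers passed (median -1.0002). NK cell markers were called higher in 2 of 4, none of which reaches the filter in controls, neutrophil markers rose in 1 of 3 tested, and mast cell markers fell in 2 of 4. None of 3 B cell, 1 skeletal muscle or 2 red blood cell markers tested passed, and no fat or thymus marker was high enough to test. Foxn1, the thymic epithelial factor, was at 0 in all 7 libraries.

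The genes whose profile over the 7 libraries was most like that of each member were found by the root mean square difference of log2 values centred on their mean, among 13212 genes. Ccl2 was nearest to Myb (0.28), Ccl12 to Tlr1 (0.40), and Ccl7 to Iigp1 (0.44) and Rhoh (0.49). Ccr2 was nearest to Treml4 (0.33) and Lax1 (0.37). Cx3cl1 was nearest to Tlr6 and Kif5c (0.18 each), and Cx3cr1 to Stx11 (0.16) and Tnfaip3 (0.17). For Ccl8 the nearest were Apol9a (0.60) and Ccl4 (0.73). The profiles were not scaled, so the measure also depends on the size of the change, which was largest for Ccl8. Among the members, Ccl7 and Ccl12 were each other's nearest (0.37), as were Cx3cl1 and Cx3cr1 (0.38), while the nearest to Ccl8 was Ccl2 at 1.82. All of these share the same 7 libraries and the same difference between groups. Some of the nearest genes were low in controls. Myb had a control mean of 4.51 normalized counts, and Treml4 and Ccl4 reached the filter only through the ICI-myocarditis libraries. The likeness of these genes is given as a description and is no support.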

How the data were processed

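Total RNA libraries of 7 mouse hearts (4 control, 3 ICI-myocarditis) were grouped by their labels. Per the submitters' processing notes, the tools included STAR 2.7.3 and the build was GRCm38 (mm10). The counting program, annotation and use of strand are not given in the sources used here. The deposited library columns hold a signal, namely reads per gene scaled by a size factor for that library (seen from the values). Per the file headers, which read like DESeq2 output, further columns give the authors' log2 fold change, its error, a test score, and the raw and adjusted p-value. Dividing by the smallest step gave whole reads for 100% of values (tolerance 0.001). In control 1 the step was 1.01, so near 1 that this is a weaker sign there. Rows with names turned into dates numbered 27 (0.143% of reads).

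The principal test was limma 3.58.1 (R 4.3.3, trend and robust) on log2(normalized count + 1), for genes reaching 10 normalized counts in 3 or more libraries, with Benjamini-Hochberg adjustment and a threshold of 0.05. The added 1 shrinks changes of low genes. Even so, the log2 fold changes of Ccl2, Ccl7, Ccl8, Ccl12 and Ccr2 were larger by limma than by edgeR (7.08 against 6.47 for Ccl8). Alternatives were edgeR 4.0.16 and DESeq2 1.42.0 on recovered reads, limma-voom, other scalings, pseudocounts and filters, a replicate block, and leaving out each library. The tests were tested on simulated counts. Without molecular identifiers, reads are not independent molecules, and p-values measure the spread between these animals. Exon lengths came from the basic set of GENCODE M21, shared runs from its full set of transcripts, and positions and promoters from RefSeq (GRCm38.p6). Older names in the table were matched through RefSeq synonyms for 8 list genes, and 1 marker, Ly6g, was not matched.

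The 7 genes and all lists were chosen with earlier results of these data known. Named are the 7 genes, Ctla4 and Pdcd1, the receptor, atypical receptor, shedding and neighbour lists, the 3 genes of lowest p in other lists, and the 2 nearest profiles to each gene, leaving out predicted genes. Further names fill counts of 5 or fewer and were chosen after their values were seen. A few genes that met this rule are not reported here.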

Additional observations from a re-analysis of the deposited data

Results flagged for a closer look

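Of 16 checks for a library far from the rest of its group, 1 met the criterion, and chance alone gives about 1 in 20. It was Cx3cl1 minus the endothelial marker mean in the controls: control 4 (-3.67) lay above the other 3 (-4.50 to -4.45), a gap of 0.937 of the whole range and beyond Dixon's critical value. The Cx3cl1 count of control 4 was within the range of the other controls, and its endothelial marker sum was the lowest of the 4. All 4 controls lay below the lowest ICI-myocarditis value of -1.92.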

How the results depend on the processing

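All 7 genes kept their direction under the 18 alternatives. Their number called was 6 under edgeR, DESeq2, library size scaling and limma without trend and robust variance. It was 7 under every other analysis of all libraries, and 5 to 7 when 1 library was left out. Genes called overall numbered 2397, from 986 (without ICI-myocarditis 3) to 3340 (without control 2) when 1 library was left out, with 1298 without control 3, 1396 without ICI-myocarditis 2 and 1508 without control 1; fewer animals were then tested. Library size scaling moved the median of all genes to 0.14, against -0.02 in the main analysis. Same-numbered animals did not deviate together (correlations of -0.27, -0.21 and -0.08), and the labels give no pairing. So few animals cannot decide whether same-numbered animals were handled together. With a replicate block, control 4 has no partner and does not inform the difference. In that fit 1780 genes and all 7 members were called, Ccr2 at 2.59 (limma adjusted p = 0.0182). With 1 library left out, the within-library changes ranged from 3.85 to 4.36 for Ccl8 minus Ccr2, 2.63 to 3.50 for Cx3cl1 minus the endothelial mean, and 0.70 to 1.62 for Ccr2 minus Cx3cr1. Those designs cannot reach 0.05. The lengths of Ccr2, Cx3cl1 and Cx3cr1 were varied after seeing the data. Depth limits the low control values of Ccl2, Ccl8 and Ccl12, some of 8 reads.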
